A study of Mus musculus with 6 samples.

Results

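The Hox genes of the E17.5 ductus arteriosus (DA) were taken as every row of the deposited expression table whose symbol names a gene of the HoxA, HoxB, HoxC or HoxD cluster, which gave 39 genes of the 23997 in the table. Bulk RNA-Seq had been carried out on whole DA of C57BL/6 embryos at E17.5, from wild type animals (WT, 3 libraries) and from Prdm6f/f; SM22-Cre animals (called KO here, as in the sample titles, 3 libraries), with no other treatment in either group. The SM22-Cre transgene expresses Cre in smooth muscle cells (SMCs), so the floxed Prdm6 gene, which encodes a SMC-enriched PRDM family histone methyltransferase, is removed in the cells that express the transgene and not in the other cells of the vessel. The labels do not say whether a library came from 1 embryo or from a pool, and in bulk tissue fewer cells of a type and less RNA per cell cannot be told apart. The libraries are named WT 0, WT 1, WT 2, KO 0, KO 1 and KO 2 after their titles, and values are FPKM, a fragment count scaled for transcript length and library size, so that levels can be compared between genes.

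Hox genes encode homeodomain transcription factors that give cells their position along the head-to-tail axis. Within a cluster the genes lie in the order in which they are used along the body: those at the 3′ end are active furthest forward, and those at the 5′ end only towards the tail, so the 5′-most gene that a tissue expresses marks its axial level. Genes at the same place in different clusters form a paralog group, numbered from 1 at the 3′ end to 13 at the 5′ end. The wall of the DA forms from a pharyngeal arch artery populated by cardiac neural crest cells, which leave the hindbrain behind the otic vesicle, a level where Hox genes of the anterior and central paralog groups are known to be active. Retinoic acid switches the anterior genes on, and Polycomb complexes keep unused genes silent.

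The clusters were located on GRCm38 with the GENCODE annotation. HoxA is on chromosome 6 with its genes on the minus strand. HoxB is at chr11:96194316-96368256, HoxC at chr15:102921103-103036852 and HoxD at chr2:74668310-74765142, with their genes on the plus strand. The clusters also hold microRNA genes of the miR-10 and miR-196 families, which are known to target Hox transcripts. Their mature forms are shown (RefSeq, GRCm38.p6) because these genes are part of the clusters, with the seed, bases 2 to 8, in capitals, and the 4 sequences fall into a pair sharing ACCCUGU and a pair sharing AGGUAGU.
miR-10a-5p, at chr11:96317186-96317208 next to Hoxb4: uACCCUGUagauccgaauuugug
miR-10b-5p, at chr2:74726074-74726096 next to Hoxd4: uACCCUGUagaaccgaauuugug
miR-196a-5p, at chr11:96265187-96265208 in HoxB and chr15:102973365-102973386 in HoxC: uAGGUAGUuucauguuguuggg
miR-196b-5p, at chr6:52230129-52230150 in HoxA: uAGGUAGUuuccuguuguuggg
Mir10a, Mir10b, Mir196a-1, Mir196a-2 and Mir196b were all listed at 0 in the 6 libraries. The same held for 1034 of the 1087 microRNA genes of the table, so the levels of the mature microRNAs were not measured by these libraries.

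The DA expressed the anterior and central part of the HoxA and HoxB clusters, a shorter stretch of HoxD, and almost no HoxC. A gene was taken as expressed when its mean over the 6 libraries was at least 1 FPKM, which held for 13 of the 39 genes. These were 5 of 11 genes in HoxA (among them Hoxa2 to Hoxa5), 5 of 10 in HoxB (Hoxb2 to Hoxb6), 0 of 9 in HoxC and 3 of 9 in HoxD (Hoxd3, Hoxd4 and Hoxd8). At the other end, 12 genes were listed at 0 in all 6 libraries: Hoxa11, Hoxa13, Hoxb13, Hoxc8 to Hoxc13, Hoxd1, Hoxd12 and Hoxd13. The remaining 14 genes had a value above 0 in at least 1 library but a mean under 1 FPKM. A 0 in this table is not proof of absence, since of the 3506 genes with a mean of at least 20 FPKM between 34 and 61 were listed at 0 in a given library.

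**Figure D1:**
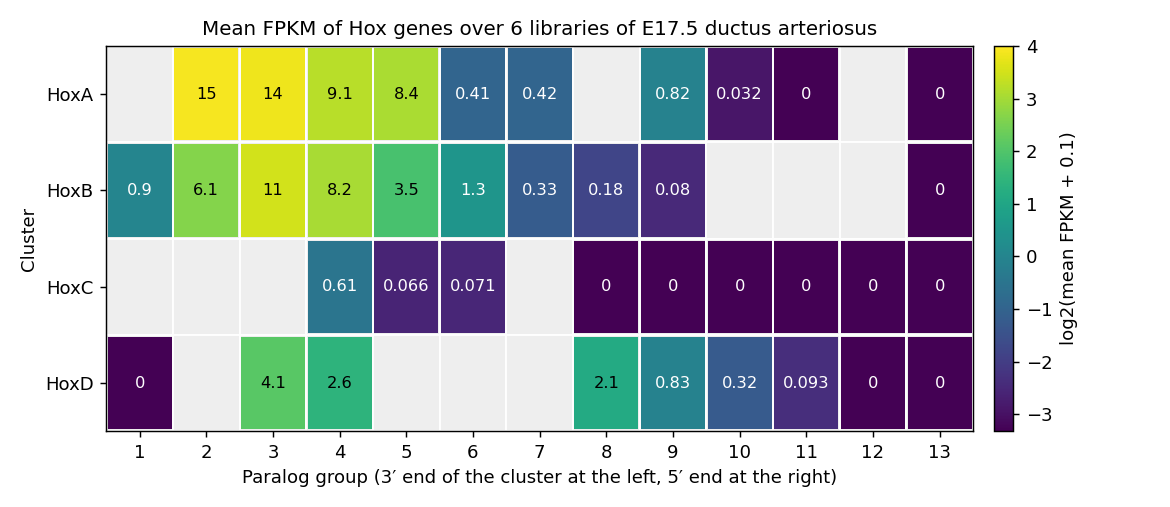
Mean FPKM over the 6 libraries for Hox genes, with clusters in rows and paralog groups in columns, grey where there is no gene or no value is shown, and colour on the log2(mean FPKM + 0.1) scale. HoxA and HoxB have their high values in paralog groups 2 to 5, HoxD only at Hoxd3, Hoxd4 and Hoxd8, and HoxC has no mean of at least 1.

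Paralog group 3, the group whose genes are known for their role in the third pharyngeal arch, contributed the highest summed level, 29.3 ± 7.53 FPKM (SD, n = 6 libraries), or 31.5% of the sum over all Hox genes. Group 2 followed with 21.1 ± 7.62 FPKM, group 4 with 20.4 ± 5.69 FPKM and group 5 with 11.97 ± 6.32 FPKM. The spreads of these neighbours overlapped, so their order is not fixed by 6 libraries. No group from 6 upward exceeded 2.29 ± 1.18 FPKM, the value of group 8. Groups 12 and 13, which pattern the distal limb and the genital and tail region, were at 0 throughout.

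Among single genes, Hoxa2, which patterns the second pharyngeal arch, had the highest mean level at 15.0 ± 6.41 FPKM (SD, n = 6). Hoxa3, which is needed for the thymus, parathyroid and carotid body, came next at 13.96 ± 4.34 FPKM, and Hoxb3 had 11.2 ± 3.27 FPKM. Hoxa2 was above Hoxa3 in only 3 of the 6 libraries, and Hoxb3 above Hoxa4 (9.10 ± 5.30 FPKM) in 3 of 6. Hoxa5, a regulator of lung and respiratory tract development, followed at 8.36 ± 5.74 FPKM, Hoxb4 at 8.18 ± 3.46 FPKM and Hoxb2 at 6.14 ± 2.36 FPKM. From Hoxd3 (4.15 ± 1.11 FPKM) and Hoxb5 (3.54 ± 1.68 FPKM) down to Hoxb6 (1.32 ± 1.03 FPKM), no gene lay above the next in the order in more than 4 of the 6 libraries. In this order, then, no step between neighbours held in all 6 libraries.

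Along the clusters, in contrast, some steps between adjacent genes held in every library. In HoxA the level dropped from Hoxa5 to Hoxa6 in 6 of 6 libraries, from a mean of 8.36 to 0.410 FPKM. In HoxB the level rose from Hoxb2 to Hoxb3 in 6 of 6 libraries and dropped from Hoxb4 to Hoxb5 in 6 of 6, and the decline beyond was gradual, through Hoxb6 to Hoxb7 (0.331 ± 0.430 FPKM). In HoxD, Hoxd1 was at 0 and Hoxd3 above it in 6 of 6 libraries, while the step from Hoxd8 to Hoxd9 was downward in 4 libraries and upward in 1. In WT 2 the fall in HoxA came 1 gene earlier, from Hoxa4 (5.89 FPKM) to Hoxa5 (0.0490 FPKM), and Hoxa6 was at 0. The step down in HoxA between paralog groups 5 and 6 thus held in all 6 libraries, though in WT 2 both values were near 0. HoxB stepped down between groups 4 and 5 in all 6. In HoxD the only downward step found in all 6 libraries was that from Hoxd11 (0.0206 to 0.132 FPKM) to Hoxd12 (0 FPKM), at levels near 0.

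**Figure D2:**
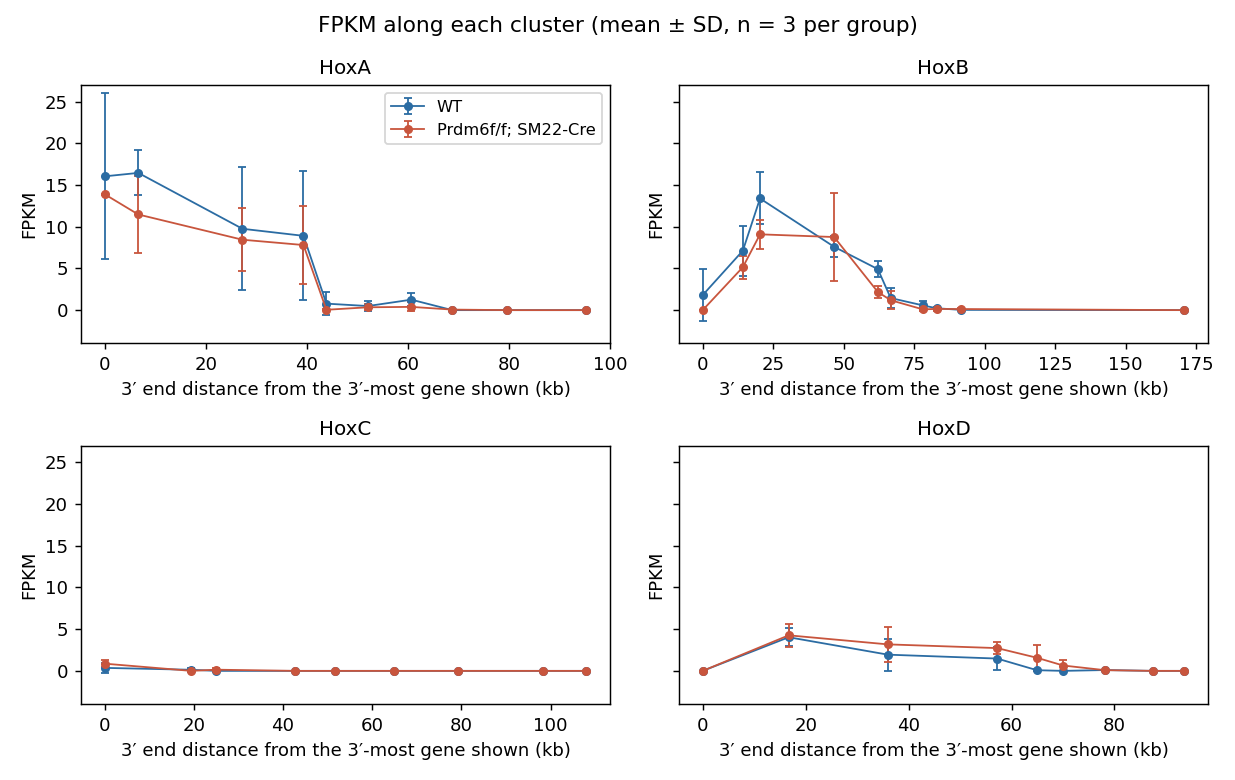
Mean FPKM (points) with SD (bars, n = 3) for WT and KO (Prdm6f/f; SM22-Cre), plotted against the distance in kb of each gene's 3′ end from that of the 3′-most gene shown of its cluster. In both groups HoxA falls to near 0 past its first 4 points (Hoxa2 to Hoxa5), HoxB declines over a longer stretch, and HoxC stays near 0 throughout.

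The promoter windows of Hoxa5 and Hoxa6 are shown because the mean level fell most sharply in HoxA between these genes, although in WT 2 both were near 0. Each window runs from 250 bases before to 50 after a RefSeq transcript start, 300 bases in all, on the minus strand of GRCm38.p6, at chr6:52204538-52204837 for Hoxa5 and chr6:52208623-52208922 for Hoxa6, and capitals mark AGGTCA or its reverse complement, the half-site bound by retinoic acid receptors and other nuclear receptors.
Hoxa5 window: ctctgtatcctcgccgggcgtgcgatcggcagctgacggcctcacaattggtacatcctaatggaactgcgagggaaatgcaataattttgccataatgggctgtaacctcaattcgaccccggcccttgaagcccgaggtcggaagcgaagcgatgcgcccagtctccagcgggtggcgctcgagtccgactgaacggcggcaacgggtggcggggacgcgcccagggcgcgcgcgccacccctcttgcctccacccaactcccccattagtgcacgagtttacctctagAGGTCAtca
Hoxa6 window: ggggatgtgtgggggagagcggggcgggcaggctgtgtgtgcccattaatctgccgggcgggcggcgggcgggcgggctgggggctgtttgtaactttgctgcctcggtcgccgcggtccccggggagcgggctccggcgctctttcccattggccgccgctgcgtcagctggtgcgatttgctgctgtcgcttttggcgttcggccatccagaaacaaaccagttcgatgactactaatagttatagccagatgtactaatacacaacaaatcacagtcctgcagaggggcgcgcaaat
The Hoxa5 window held 1 AGGTCA and 29 CpG dinucleotides, and the Hoxa6 window held no AGGTCA and 26 CpG. Across clusters, RefSeq windows were found for 22 of the 39 Hox genes, 24 windows in all, with a median of 14.5 CpG against 7 over all 32851 promoter windows of the table. The median was 14 in the 7 windows of expressed genes and 15 in the 17 windows of the others. AGGTCA, on either strand, was found in 5 of 7 windows of expressed Hox genes and in 2 of 17 of the others, against 16.3% of all windows. TGATNNAT, the letters that a Hox protein and a Pbx protein bind together, was found on either strand in 4 of the 24 Hox windows (8.85% of all windows), and TATAAA in 4 of 24 (13.6% of all windows). These matches describe the letters in the windows and are not bound sites.

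The posterior genes of paralog groups 9 to 13 were the least expressed, with 0 of 16 genes at a mean of at least 1 FPKM and 10 of 16 listed at 0 in all libraries. The highest single value among them was 3.06 FPKM. Hoxd9 was at 0, 0.243 and 0 FPKM in WT and at 0, 3.06 and 1.66 FPKM in KO. Its neighbour Hoxd10 was at 0 in all WT libraries and at 0, 1.25 and 0.680 FPKM in KO. The values of these adjacent genes were thus highest in the same libraries, KO 1 and then KO 2, while KO 0 was at 0 for both like most WT libraries. Hoxa9 went the other way, with 1.49, 0.407 and 1.87 FPKM in WT and 0, 1.01 and 0.158 FPKM in KO, and Hoxd11 was above 0 in all 6 libraries at a level of 0.0206 to 0.132 FPKM.

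Among the other genes under the expression limit, Hoxa6 reached 1 FPKM only in WT 1 (2.34 FPKM) and Hoxa7 only in WT 0 (1.12 FPKM). Hoxc4, the 3′-most gene of its cluster, reached 1.08 FPKM in WT 1 and 1.34 FPKM in KO 1 and was the only HoxC gene to do so. Hoxb7 reached 1.002 FPKM in WT 0, and Hoxb8, Hoxb9, Hoxc5, Hoxc6 and Hoxa10 reached at most 0.431 FPKM in any library. Hoxb1, the anterior-most gene of HoxB, was listed at 5.41 FPKM in WT 2 and at 0 in the other 5 libraries.

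The question behind the libraries was what loss of Prdm6 in SMCs does to transcription in the DA, and for the Hox genes it is whether their levels differ between WT and KO. No Hox gene passed the test of that difference, which does not show that the levels were equal. The test was limma on log2(FPKM + 0.1) over the 12955 genes with a mean of at least 1 FPKM, of which 13 are Hox genes, with Benjamini-Hochberg adjustment over all of them. The test called 1 gene in all, Rn45s (the ribosomal RNA precursor, not a Hox gene and named after its value was seen), or 0.00772% of those tested, and 0 of 13 Hox genes is a share near that background. At an unadjusted p under 0.05, the count was 0 of 13 Hox genes against 8.28% of all genes tested (3.31% higher and 4.97% lower in KO). The median log2 fold change was -0.08 over the 13 Hox genes and 0.07 over all genes tested, with median standard errors of 0.51 and 0.41.

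The WT and KO values of 2 of the 13 expressed Hox genes did not overlap, Hoxb5 among them, and both genes were lower in KO. Of all genes tested, 7.84% were lower in KO without overlap. None of the 13 Hox genes was higher without overlap (8.21% of all genes).

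Hoxb5, which has a role in enteric neural crest and in vascular progenitors, was at 3.85, 5.52 and 5.38 FPKM in WT and at 1.58, 1.90 and 3.04 FPKM in KO. All 3 KO libraries were below the lowest WT library. The log2 fold change was -1.18 with a standard error of 0.51, and the adjusted p from limma was 0.601, the lowest of the 13 Hox genes. The exact two-sided permutation test gave p = 0.1, the smallest value that 3 against 3 libraries allow. Exons of Hoxb5 overlap Hoxb5os on the opposite strand, and the strand setting of the counting is not given in the sources used here, so reads of the pair cannot be told apart. The same limit holds for Hoxa3 (with Hoxaas2, Hoxaas3 and others), Hoxa4 (with Gm29430), Hoxb2 and Hoxb3 (with Hoxb3os) and Hoxd3 and Hoxd4 (with Hoxd3os1). Hoxa2 and Hoxa3 also share exons with Gm28308 on their own strand.

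Group 3 genes had lower means in KO for HoxA and HoxB, with overlapping values. Hoxa3 was at 13.4, 18.3 and 17.7 FPKM in WT and at 12.6, 15.4 and 6.39 FPKM in KO (log2 fold change -0.60, standard error 0.36, limma adjusted p = 0.672). Hoxb3 was at 10.2, 13.6 and 16.4 FPKM in WT and at 10.5, 9.62 and 7.12 FPKM in KO (log2 fold change -0.55, standard error 0.30, limma adjusted p = 0.650). For both, KO 2 was the lowest library, and the groups met through WT 0. Without KO 2 the log2 fold change of Hoxa3 was -0.22, and without KO 1 it was -0.85. Hoxd3 was even, at 5.12, 2.98 and 4.01 FPKM in WT and at 4.89, 5.22 and 2.68 FPKM in KO.

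In group 2, Hoxa2 was spread over 27.4, 12.1 and 8.64 FPKM in WT and held 13.8, 13.9 and 13.95 FPKM in KO. The WT values therefore lay on both sides of the KO values, and the log2 fold change was -0.03 with a standard error of 0.41. Hoxb2, a target of Krox20 in the hindbrain, was at 7.82, 9.73 and 3.83 FPKM in WT and at 5.18, 6.51 and 3.76 FPKM in KO, with a log2 fold change of -0.40 and a standard error of 0.47. It was -0.12 without WT 1, -0.19 without KO 2 and -0.78 without WT 2.

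In group 4, Hoxa4 was at 18.3, 5.11 and 5.89 FPKM in WT and at 11.1, 10.2 and 4.09 FPKM in KO. Hoxb4, which is known for its role in blood progenitors, was at 7.005, 9.04 and 6.74 FPKM in WT and at 14.6, 4.58 and 7.09 FPKM in KO. In both genes 1 library stood above the rest of its group, WT 0 for Hoxa4 and KO 0 for Hoxb4. Hoxd4 was listed at 0, 1.996 and 3.84 FPKM in WT and at 2.13, 5.56 and 1.85 FPKM in KO. Hoxd3 and Hoxd4 share exons on the same strand in the annotation, so how reads were split between them is uncertain.

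Among the remaining genes single libraries set the fold changes. Hoxa5 was at 12.3, 14.4 and 0.0490 FPKM in WT and at 3.94, 6.53 and 12.9 FPKM in KO. Its log2 fold change was 1.24 with a standard error of 1.65, the reverse of the order of the means (8.91 FPKM in WT and 7.80 FPKM in KO), and without WT 2 it was -0.93. Hoxd8 was listed at 0, 1.70 and 2.72 FPKM in WT and at 2.41, 2.22 and 3.57 FPKM in KO, with a log2 fold change of 1.80 and a standard error of 1.33 that rest on the 0 in WT 0. Without WT 0, the log2 fold change was 0.30 for Hoxd8 and 0.02 for Hoxd4, against 1.63 for Hoxd4 with all libraries. Hoxb6 was at 2.04, 2.23 and 0.0721 FPKM in WT and at 2.09, 1.48 and 0 FPKM in KO, so that WT 2 and KO 2 were the low libraries.

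**Figure D3:**
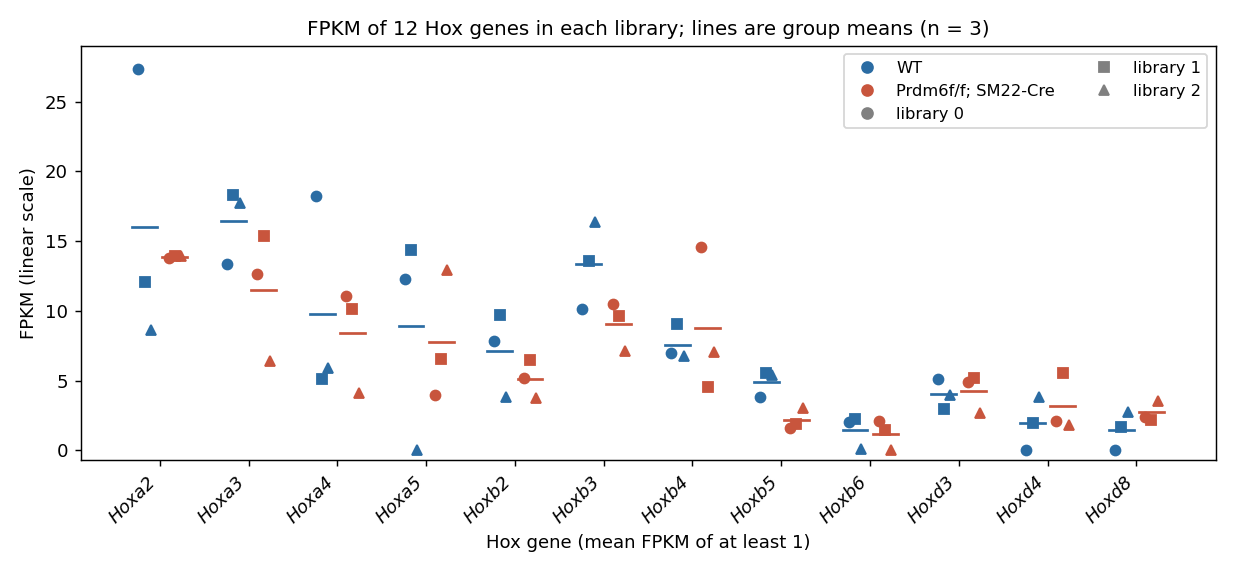
FPKM of 12 expressed Hox genes in each library on a linear scale, WT in blue and KO (Prdm6f/f; SM22-Cre) in red, symbols marking libraries 0, 1 and 2 and short lines the group means (n = 3). Of the genes plotted, Hoxb5 alone has WT and KO points that do not overlap, and single points such as Hoxa2 in WT 0 (27.4 FPKM) and Hoxa5 in WT 2 (0.0490 FPKM) lie far from the rest of their group.

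The libraries were next compared by how their Hox expression was divided among anterior (paralog groups 1 to 3), central (4 to 8) and posterior (9 to 13) genes. A piece of tissue taken nearer to the head or the tail could differ in this division, and so could one with another mix of cell types. The summed FPKM of all 39 genes was 115, 105 and 88.1 in WT and 88.5, 90.6 and 72.7 in KO. The anterior sum was 67.5, 58.9 and 61.5 FPKM in WT and 49.0, 51.2 and 35.2 FPKM in KO, which do not overlap. The group means of the anterior sum were 62.6 ± 4.397 and 45.1 ± 8.67 FPKM (SD, n = 3 each). This sum includes single high values, 27.4 FPKM of Hoxa2 in WT 0 and 5.41 FPKM of Hoxb1 in WT 2. Taken singly, Hoxa2, Hoxa3, Hoxb2, Hoxb3 and Hoxd3 overlapped between the groups. Among all genes tested, 16.1% had groups that did not overlap in either direction.

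The central sum was 45.9, 45.1 and 24.7 FPKM in WT and 39.2, 33.9 and 34.6 FPKM in KO, and here WT 2 was the lowest of the 6 libraries. As a share of the Hox sum, the anterior genes made up 58.7%, 56.2% and 69.7% in WT and 55.4%, 56.5% and 48.4% in KO. The shares overlapped, unlike the sums, with WT 2 the highest and KO 2 the lowest. On the log2 scale the median fold change was -0.47 over the 6 anterior genes tested and 0.05 over the 7 central ones.

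The posterior share was 1.41%, 0.736% and 2.27% in WT and 0.270%, 6.11% and 3.97% in KO. KO 1 and KO 2 were above all WT libraries and KO 0 below them all, so the spread within KO exceeded the difference between the groups. The 5′-most HoxD gene with at least 1 FPKM was Hoxd3 in WT 0, Hoxd8 in WT 1, WT 2 and KO 0, Hoxd10 in KO 1 and Hoxd9 in KO 2. In HoxA it was Hoxa9 in WT 0, WT 2 and KO 1, Hoxa6 in WT 1, and Hoxa5 in KO 0 and KO 2. The libraries with the 5′-most reach in HoxD were therefore not those with the 5′-most reach in HoxA, apart from KO 1, which was high in both. The libraries also differed in how many genes of the whole table were listed at 0, with 10313, 8832 and 11886 in WT and 9825, 9586 and 8338 in KO. Hox genes above 0 numbered 17, 22 and 16 in WT and 17, 20 and 22 in KO. The low posterior values, their share and the 5′ reach depend on such zeros. A level of dissection is not recorded in the labels, and its part and that of the zeros in these differences were not tested.

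**Figure D4:**
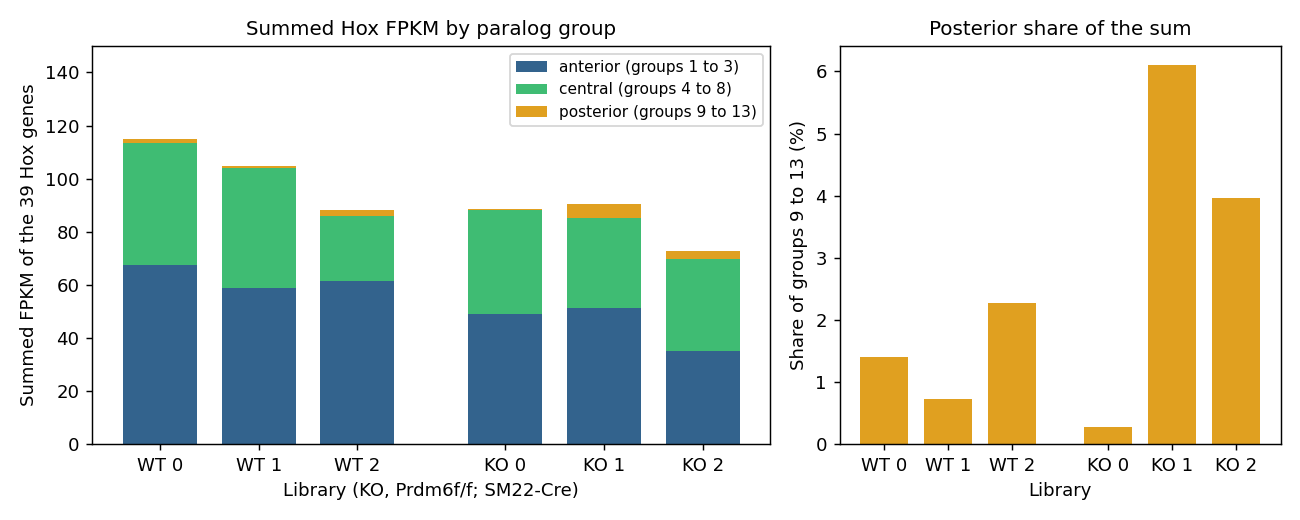
Left, summed FPKM of the 39 Hox genes per library, stacked as anterior (paralog groups 1 to 3), central (4 to 8) and posterior (9 to 13) genes. Right, the posterior share of that sum in percent. The anterior part is higher in each WT library (58.9 to 67.5 FPKM) than in each KO library (35.2 to 51.2 FPKM), and the posterior share is highest in KO 1 (6.11%).

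Marker lists of the other cell types that a DA sample can hold were summed in the same libraries. The SMC list was at 2505 to 5800 FPKM in WT and 937 to 2434 FPKM in KO, without overlap like the anterior Hox sum, and all 10 of its genes had a lower mean log2 level in KO, with 0 listed at 0 throughout. The autonomic neuron list was at 58.9 to 90.8 FPKM in WT and 91.8 to 123 FPKM in KO, again without overlap but with WT 2 and KO 0 nearly equal. Of its 14 genes 10 were tested, with 8 higher and 2 lower in KO. Without overlap, 3 of the 10 were higher and 0 lower, against 8.21% and 7.84% of all genes tested. The summed Schwann cell list was highest in KO 2 (271 FPKM) and KO 1 (184 FPKM), the same libraries that were highest in posterior share, against 105 to 132 FPKM in the other 4. Heart muscle transcripts were far higher in WT 1 (1829 FPKM) and KO 2 (2119 FPKM) than in the others (71.4 to 661 FPKM), and without these libraries the KO minus WT difference of the anterior sum was -14.4 FPKM in place of -17.49 FPKM. Apart from the SMC and neuron lists, the sums of all 12 marker lists overlapped between the groups (heart muscle, Schwann, fibroblast, endothelial, erythroid, macrophage, mesothelial, cartilage, skeletal muscle and brown adipose cells and both epithelial lists), and the part of any cell type in the Hox values was not tested. The targeted gene itself, Prdm6, was at 41.7, 48.4 and 19.8 FPKM in WT and at 48.6, 27.1 and 15.4 FPKM in KO and so does not check the labels. Its log2 fold change was -0.32 with a standard error of 0.48.

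Hox proteins bind DNA with cofactors of the Pbx, Meis and Pknox families, of which 8 of 9 genes passed the filter and 0 were called (limma). Without overlap, 1 of the 8 was higher in KO and 1 lower, against 8.21% and 7.84% of all genes tested. Pknox1, which like the Meis proteins pairs with Pbx, was at 5.74, 9.06 and 4.51 FPKM in WT and at 12.9, 14.3 and 11.2 FPKM in KO, higher without overlap (log2 fold change 1.03, standard error 0.34, limma adjusted p = 0.545). The groups overlapped for Pbx2, Pbx3, Meis1, Meis2, Meis3 and Pknox2, with log2 fold changes from -0.54 for Meis3 to 0.54 for Pbx3. Single libraries set these ends, since Meis3 came to -0.19 without WT 0, -0.34 without WT 1 and -1.10 without WT 2, and Pbx3 to 0.08 without KO 0, 0.12 without WT 2, 0.84 without KO 2 and 0.86 without WT 0. Meis1 was at 31.7 to 51.9 FPKM, and Pbx4 stayed under the filter at 0 to 1.06 FPKM.

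**Figure D5:**
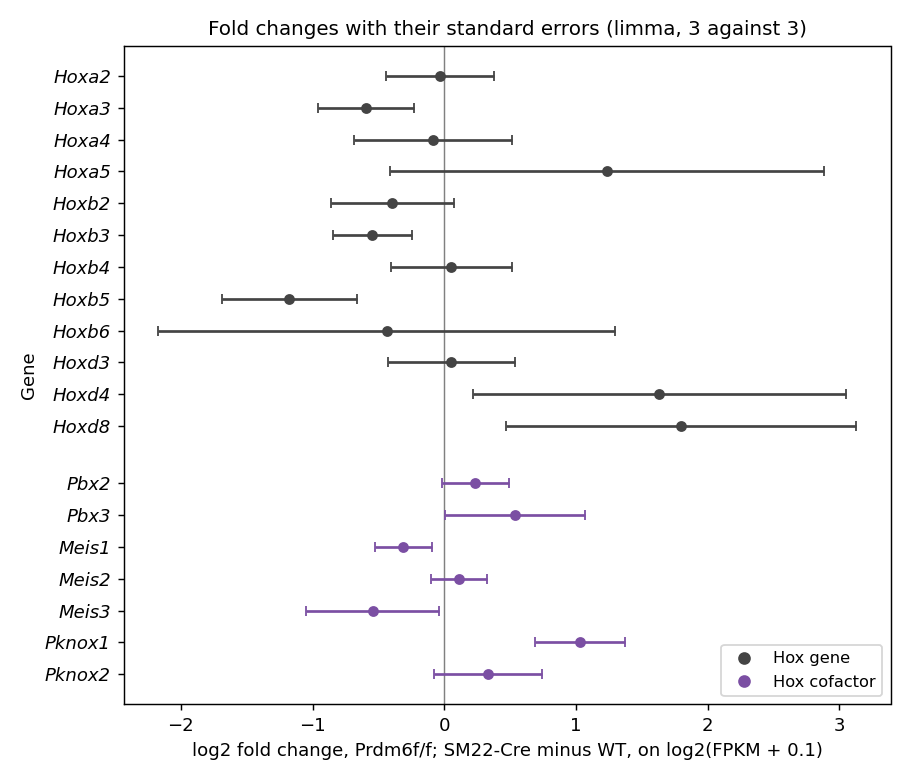
Log2 fold change (KO, Prdm6f/f; SM22-Cre, minus WT) on the log2(FPKM + 0.1) scale with its standard error (bars) from limma, 3 libraries against 3, for 12 expressed Hox genes (grey) and 7 expressed Hox cofactors (purple). Hoxb5 (-1.18) and Pknox1 (1.03) are the genes in it whose groups do not overlap, and Hoxa5, Hoxb6, Hoxd4 and Hoxd8 have the widest bars.

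Of 23 genes known to set Hox expression, 18 passed the filter and 0 were called (limma), with 2 higher and 2 lower in KO without overlap, against 8.21% and 7.84% of all genes tested. Rarb, a retinoic acid receptor that is itself a target of retinoic acid, was at 6.87, 7.80 and 1.67 FPKM in WT and at 12.9, 16.1 and 11.1 FPKM in KO (log2 fold change 1.53, standard error 0.58, limma adjusted p = 0.588), and without WT 2 the log2 fold change was 0.85. Rara had lower values in KO (14.6 to 17.52 FPKM) than in WT (20.1 to 24.7 FPKM), and so had Cyp26b1, an enzyme that degrades retinoic acid (0.233 to 1.28 FPKM against 1.77 to 3.91 FPKM). Cyp26b1 passed the filter only through the WT libraries (mean 2.79 FPKM, against 0.778 FPKM in KO), so its lack of overlap is only described. Suz12, a core subunit of Polycomb repressive complex 2, had values of 17.9 to 26.1 FPKM in KO and 14.7 to 16.4 FPKM in WT. The genes of this list thus lay on both sides of 0, with a median log2 fold change of 0.04. Cdx1, Cdx2 and Cdx4, which act on posterior Hox genes at the tail end of the embryo, were listed at 0 in all 6 libraries.

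Other genes of the clusters had values at or near 0 in this table. Of 25 symbols of noncoding and flanking genes, 13 were in the table, 0 passed the filter and 10 were at 0 in all libraries, 6 of them microRNA genes and the others Hotair, Hottip, Hoxa11os and Evx2. The highest value was that of 2700086A05Rik, a noncoding gene of the HoxA cluster, with 2.91 FPKM in WT 1. Hoxd3os1 was above 0 only in KO 2 (0.488 FPKM) and Evx1, at the 5′ end of HoxA, only in KO 0 and KO 2 (0.392 and 0.253 FPKM).

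Transcription factors that mark other positions were read beside the Hox genes. Of 15 factors of the head rostral to Hox expression, 5 passed the filter and 4, Otx2, En1, En2 and Emx1, were at 0 in all libraries. Among the 5, 1 was higher in KO without overlap and 0 were lower, against 8.21% and 7.84% of all genes tested. Six3, a forebrain and eye factor, was at 0.0422, 0.0669 and 0.0240 FPKM in WT and at 6.95, 1.33 and 0.912 FPKM in KO, without overlap (log2 fold change 3.92, standard error 1.51, limma adjusted p = 0.588). Six3 passed the filter only through the KO libraries (mean 3.06 FPKM, against 0.0444 FPKM in WT). Its lack of overlap is therefore described and is not support for a difference. Of 30 factors of the outflow tract, pharynx and thorax, 20 passed the filter and 0 were called (limma). Among the 20, 1 was higher and 2 were lower in KO without overlap, against the same 8.21% and 7.84%. Foxf1, a factor of splanchnic mesoderm, was at 16.4, 11.9 and 2.05 FPKM in WT and at 1.11, 2.01 and 0.811 FPKM in KO (log2 fold change -2.50, standard error 0.85, limma adjusted p = 0.549), and its WT 2 value was close to the KO values. Prrx2, a mesenchymal homeobox gene, was lower in KO without overlap (0 to 4.45 FPKM against 7.10 to 9.22 FPKM, limma adjusted p = 0.647). Its log2 fold change of -2.64 rests in part on the 0 in KO 1 and was -0.81 without that library. Tbx2, an outflow tract repressor, was at 1.59, 2.95 and 8.53 FPKM in WT and at 17.54, 12.4 and 6.94 FPKM in KO, which overlap.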

How the data were processed

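Total RNA of flash-frozen DA was extracted with the miRNeasy Micro kit, and libraries followed Illumina protocols. After trimming for quality and length, the authors mapped reads with TopHat2 (genome build mm10), and Cufflinks and Cuffdiff gave the deposited table of FPKM, 1 value per gene and library. Versions, gene annotation, strand setting and scaling between libraries are not given in the sources used here. Groups and replicate numbers came from the sample titles. FPKM cannot be turned into counts, so no count model was used and total depth is unknown. Relative depth, estimated from the ratios of low FPKM values between libraries, was 0.927 to 1.19 (WT 1 set to 1). No detection floor was computed.

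Genes with a mean of at least 1 FPKM (12955) were tested with limma 3.58.1 in R 4.3.3 on log2(FPKM + 0.1) with a mean-variance trend, two-sided, and Benjamini-Hochberg adjustment at 0.05 over all of them. The pseudocount understates changes of low genes. The p-values measure the spread between these libraries, since their origin from separate embryos is not stated. The script was tested on simulated data. Sums and shares were described with no test. The counts cover all Hox genes, and a few genes that fall under these rules are not reported here. From other lists, genes with a mean of at least 1 FPKM were named where groups did not overlap or the unadjusted p was under 0.05, at most 5 a list by size of change, and every cofactor. The members, lists and motifs were chosen with earlier results of these data known. Positions and exon overlaps are from GENCODE vM21 (GRCm38), and promoter and microRNA sequences are from RefSeq (GRCm38.p6). Alternatives were other pseudocounts, filters and scalings, no trend, no moderation, a replicate block and each library left out. After seeing the data, the fit without the 2 libraries highest in heart muscle transcripts and the fit on genes above 0 in all 6 libraries were added.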

Additional observations from a re-analysis of the deposited data

How the results depend on the processing

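No Hox gene was called by limma under any of the 18 alternatives, and the lowest adjusted p of a Hox gene in any of them was 0.492. At an unadjusted p under 0.05 the count was 0 in the fit reported, 2 with quantile normalization, with no trend and with genes above 0 in all 6 libraries, 1 with pseudocount 1 and with no moderation, and 0 to 1 with a library left out. Over all genes tested, the 1 call became 2 with no trend, with no moderation and without the libraries highest in heart muscle transcripts, 0 with genes above 0 in all 6 libraries, and 1 to 2 with a library left out. Of the 13 Hox genes, 6 kept the sign of their fold change throughout, among them Hoxa3, Hoxb3, Hoxb5, Hoxd4 and Hoxd8, with a log2 range of -1.77 to -0.91 for Hoxb5.

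Signs turned as follows on the log2 scale, and the cause was not tested. With upper quartile scaling Hoxa2 came to 0.0013. With quantile normalization Hoxb4 came to -0.035 and Hoxd3 to -0.16. Without the libraries highest in heart muscle transcripts Hoxa4 came to 0.030, Hoxb2 to 0.082 and Hoxb6 to 1.61. With 1 library left out, which turned no sign of Hoxd4 or Hoxd8, the range was -0.39 to 0.44 for Hoxa2, -0.42 to 0.49 for Hoxa4, -0.93 to 2.37 for Hoxa5, -0.39 to 0.43 for Hoxb4, -1.67 to 0.97 for Hoxb6, -0.14 to 0.35 for Hoxd3, 0.02 to 2.67 for Hoxd4, 0.30 to 2.71 for Hoxd8, -0.046 to 0.21 for Meis2 and -0.075 to 0.65 for Pknox2.

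The count of Hox genes lower in KO without overlap was 2, and became 1 with quantile normalization, 0 with a filter at a mean of 5 FPKM, which leaves out Hoxb5, and 2 to 4 with a library left out. The 4 came without WT 0, where Hoxa3 and Hoxb3 joined. The count higher without overlap was 0, and 0 to 1 with a library left out, 1 without WT 0 and 1 without WT 2. The share of all genes without overlap was not computed under these alternatives. Groups of fewer libraries overlap less readily, so the counts with a library left out cannot be set against the shares given above. Asking for at least 1 FPKM in every library left 8 of the 13 expressed Hox genes. As a median log2 fold change in place of the difference of sums, the anterior genes gave -0.47 and the central genes 0.053. The anterior difference stayed between -20.5 and -12.5 FPKM with a library left out.

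With the replicate block, 1 gene was called and 0 Hox genes. Deviations from the group means correlated at 0.122, -0.0761 and -0.00878 for libraries with the same number, and not every library correlated best with its own number. These correlations neither show nor exclude a pairing by number, so whether the libraries are paired is not known. Values at or near 0 in 1 library (Hoxa5, Hoxb6, Hoxd4 and Hoxd8) limit what 3 libraries a group can show, and depth per library is unknown.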
